A study of Paracentrotus lividus with 19 samples.

Results

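NK2.1 and ANKAT-1 are genes of the apical plate of the sea urchin embryo, and their transcripts were followed here in Paracentrotus lividus at 24 h after fertilization. They were found by name in a table of 63389 features. The 2 names gave 3 features, 1 contig named NK2.1 and 2 contigs named ANKAT-1, written ANKAT-1.1.2 and ANKAT-1.2.2 (the suffix numbers the contig and then gives how many carry the name). The study left fertilized eggs unexposed (control, 4 libraries) or exposed them for 24 h to Fe2O3 particles (4 libraries), the iron salt FeCl3 (4), ZnO particles (3) or the zinc salt ZnSO4 (4). Per the labels, Fe2O3 was at 5e-05 M (4 mg/L of iron) and ZnO at 1e-05 M (0.8 mg/L of zinc). The salts are labelled only as matched to these for metal, and the molar and mass figures are given as stated, since they were not reconciled. Titles place the libraries in sets F1, F2 and F3. F1 has 2 libraries per treatment, except 1 for ZnO, and F2 and F3 have 1 library per treatment each. Neither the nature of the sets nor the number of separate cultures is stated, so the p-values measure the spread between these libraries, which may be technical.

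The apical plate is a patch of ectoderm at the animal pole that bears the apical tuft, a bundle of long, nearly immotile cilia, and gives rise to serotonergic neurons of the larva. Wnt signalling from the opposite pole keeps this territory small, and transcription factors of the animal pole maintain it. NK2.1 encodes a homeobox transcription factor of the apical plate, which in Strongylocentrotus purpuratus is needed for the long cilia of the tuft. ANKAT-1 encodes an ankyrin-repeat protein of the apical tuft region, and in Hemicentrotus pulcherrimus it is needed for the lengthening of the tuft cilia. The apical plate was not dissected: whole embryos were sequenced, so a lower transcript level from fewer apical plate cells and one from less RNA per cell cannot be told apart. That these contigs are apical plate transcripts in these embryos rests on their names.

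Libraries held 24438369 to 32801015 counts, and 62865 features, with all 3 contigs among them, passed the filter on low counts. The sets differed in most of the transcriptome, with 70.5% of features called between F2 and F1, so each test of a treatment carried a term for set. The 23 contigs named MT (metallothionein, a small zinc-binding protein) were summed as a readout of zinc exposure that does not use the apical genes. This sum stood at 184% to 313% of its set's control in the 7 zinc libraries. A rise was not particular to zinc, since the sum stood at 112% to 137% in the FeCl3 libraries. In the Fe2O3 libraries it stood at 75.9% to 85.3%. With FeCl3, 5 of the 23 contigs were called higher, against 0.0239% of all features. The F1 ZnSO4 libraries stood apart from the other zinc libraries in the apical genes, and results that rest on them are given below with and without them. CPM values are counts scaled to library size. They are compared between libraries for 1 contig at a time, because contig lengths were not used.

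ANKAT-1.1.2 was the more abundant ANKAT-1 contig, and it was low in each ZnO library. In controls it stood at 61.1 and 77.4 CPM in F1, 53.1 CPM in F2 and 57.7 CPM in F3. With ZnO it stood at 12.4 CPM in F1, 11.9 CPM in F2 and 9.45 CPM in F3. The ZnO libraries held 17.9%, 22.5% and 16.4% of their set's control level, that is 5.60-fold, 4.45-fold and 6.10-fold less. With ZnSO4 it stood at 71.9 and 73.9 CPM in F1, but at 9.29 CPM in F2 and 2.58 CPM in F3. The F1 ZnSO4 libraries were thus inside the control range, at 104% and 107% of their control. Those of F2 and F3 were at 17.5% and 4.47% of theirs.

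NK2.1 was low in the same zinc libraries, with smaller differences. Its controls stood at 12.8 and 17.6 CPM in F1, 14.6 CPM in F2 and 17.2 CPM in F3. With ZnO it stood at 7.51 CPM in F1, 8.39 CPM in F2 and 3.13 CPM in F3, at 49.5%, 57.4% and 18.2% of their set's control. With ZnSO4 it stood at 17.0 and 19.2 CPM in F1, 5.41 CPM in F2 and 6.61 CPM in F3. The F1 ZnSO4 libraries were at 112% and 126% of their control, and those of F2 and F3 at 37.0% and 38.5%.

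**Figure D1:**
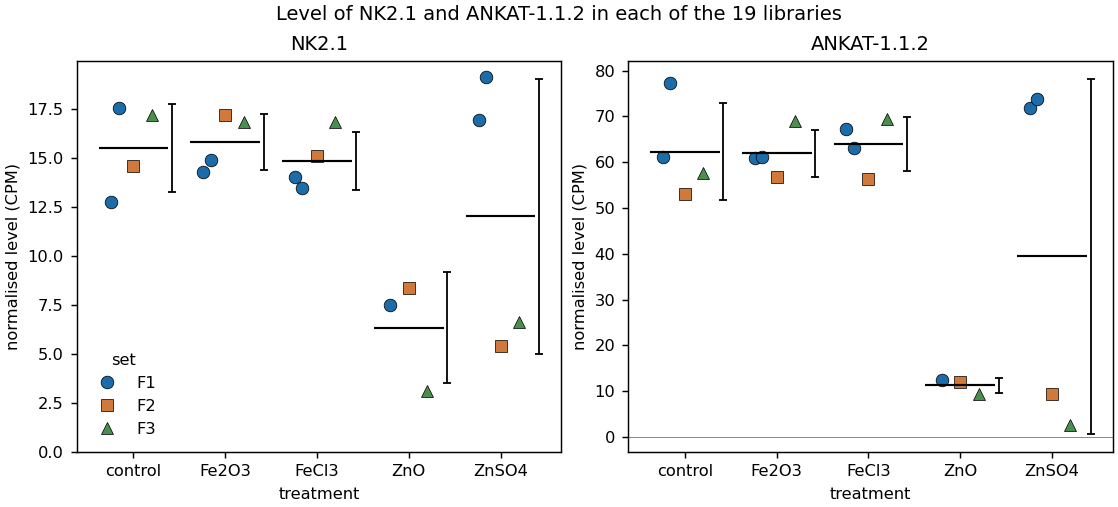
Each point is 1 library, with CPM on a linear vertical axis, the treatments along the horizontal axis and the sets told apart by marker; each panel is 1 contig. ANKAT-1.1.2 lies between 53.1 and 77.4 CPM in controls and between 9.45 and 12.4 CPM with ZnO, while the ZnSO4 libraries split into the F1 pair at 71.9 and 73.9 CPM and the others at 9.29 and 2.58 CPM.

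Over all sets, all 3 contigs fell with ZnO, where 1.14% of the 62865 features tested were called lower. Calls are adjusted p-values under 0.05 from edgeR's quasi-likelihood test, with Benjamini-Hochberg adjustment over all features. ANKAT-1.1.2 went from 62.3 ± 10.6 CPM in controls (SD, n = 4) to 11.3 ± 1.58 CPM with ZnO (SD, n = 3), a log2 change of -2.35 ± 0.54 (SE, edgeR adjusted p = 0.0181). This was the 57th most negative change of all features tested. NK2.1 went from 15.5 ± 2.26 to 6.34 ± 2.82 CPM (SD), a log2 change of -1.29 ± 0.31 (SE, edgeR adjusted p = 0.0269). ANKAT-1.2.2, whose level depended on the set as described further on, changed by -2.03 ± 0.41 (SE, edgeR adjusted p = 0.00624). With counts of both ANKAT-1 contigs summed, the change was -2.34 ± 0.54 (edgeR adjusted p = 0.0185).

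These calls depended on single libraries. Without the F1 ZnO, F2 control, F3 control or F3 ZnO library the ANKAT-1.1.2 call ended (edgeR adjusted p = 0.151, 0.0567, 0.0646 and 0.0842). NK2.1 lost its call without the same libraries or F1 control replicate 2 (edgeR adjusted p = 0.108, 0.0676, 0.111, 0.202 and 0.0663), and ANKAT-1.2.2 without F1 ZnO (edgeR adjusted p = 0.456). With both F1 ZnSO4 libraries left out, an alternative chosen after seeing the data, the ZnO changes were close to those above at -2.45 for ANKAT-1.1.2 (edgeR adjusted p = 1.9e-09) and -1.32 for NK2.1 (edgeR adjusted p = 4.03e-05). That pair was picked by its levels of these contigs, and it widened the spread of the shared fit. The smaller p-values followed from leaving it out and are no support.

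With ZnSO4 none of the 3 contigs was called over all sets, where 3.07% of features were called lower and 2.35% higher. ANKAT-1.1.2 had a mean of 39.4 ± 38.8 CPM (SD, n = 4), and its log2 difference from control was -0.92 ± 0.47 (SE, edgeR adjusted p = 0.344). NK2.1 had a mean of 12.0 ± 7.04 CPM and a log2 difference of -0.42 ± 0.27 (SE, edgeR adjusted p = 0.507). These means describe no single library, since the group was divided between F1 and the other sets. Without both F1 ZnSO4 libraries, ANKAT-1.1.2 fell by 3.36 on the log2 scale (edgeR adjusted p = 6.6e-10) and NK2.1 fell by 1.41 (edgeR adjusted p = 0.000161). That pair was left out for its high levels of these same contigs, so larger falls followed from the choice. These p-values are therefore not a test of the zinc salt.

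Each set was then compared with its own control in a model with a separate level for every treatment in every set. The spread of that model comes from the F1 pairs, with 4 residual degrees of freedom, and is assumed to hold for the single libraries of F2 and F3. With ZnO, ANKAT-1.1.2 fell in each set, with log2 changes of -2.49 ± 0.14 in F1, -2.15 ± 0.15 in F2 and -2.61 ± 0.16 in F3 (SE, edgeR adjusted p = 7.31e-13, 6.57e-10 and 6.34e-12). The share of all features called lower in these contrasts was 2.82% in F1, 0.496% in F2 and 0.748% in F3. A difference of the ANKAT-1.1.2 change between sets was not detected (edgeR adjusted p = 0.649). NK2.1 also fell with ZnO in each set, with log2 changes of -1.02 ± 0.18 in F1, -0.80 ± 0.20 in F2 and -2.46 ± 0.22 in F3 (SE, edgeR adjusted p = 0.000385, 0.0463 and 2e-08). Its change differed between sets (edgeR adjusted p = 0.0023, where 1.42% of features were called), with F3 lowest.

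With ZnSO4 the sets parted. In F1, ANKAT-1.1.2 differed from control by 0.074 ± 0.095 (log2, SE, edgeR adjusted p = 0.77) and NK2.1 by 0.25 ± 0.13 (edgeR adjusted p = 0.32). In that contrast 4.95% of all features were called lower. In F2, ANKAT-1.1.2 fell by 2.52 ± 0.16 (log2, SE, edgeR adjusted p = 1.37e-11) and NK2.1 fell by 1.44 ± 0.21 (edgeR adjusted p = 6.06e-05), with 1.33% of features lower. In F3, ANKAT-1.1.2 fell by 4.48 ± 0.19 (edgeR adjusted p = 2.36e-15), 22.4-fold in CPM, and NK2.1 fell by 1.38 ± 0.20 (edgeR adjusted p = 4.91e-05), with 1.64% of features lower. The change differed between sets for ANKAT-1.1.2 (edgeR adjusted p = 1.1e-14) and for NK2.1 (edgeR adjusted p = 6.41e-06), as it did for 3.75% of features.

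**Figure D2:**
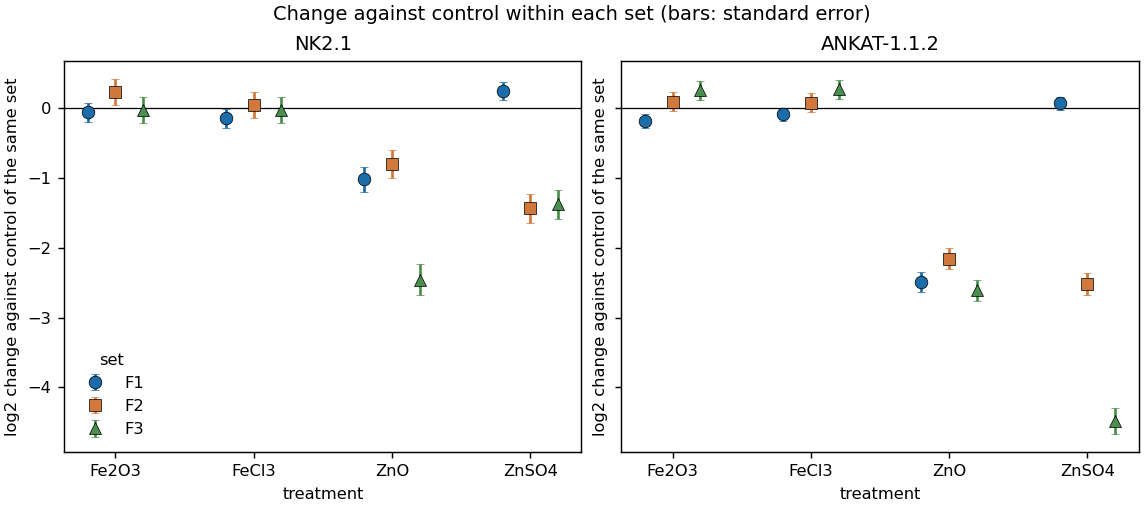
Log2 change from the control of the same set (vertical axis, error bars SE from the set-by-treatment model) for NK2.1 and ANKAT-1.1.2, by treatment and set. ZnO lies below 0 in F1, F2 and F3 for both contigs, whereas ZnSO4 lies near 0 in F1 (0.074 and 0.25) and well below it in F2 and F3; iron lies near 0 throughout.

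The zinc particle and the zinc salt were compared directly to ask whether the form of the metal mattered at matched zinc. Over all sets, ANKAT-1.1.2 was at a log2 difference of -1.43 ± 0.56 (ZnO minus ZnSO4, SE, edgeR adjusted p = 0.573) and NK2.1 at -0.87 ± 0.32 (edgeR adjusted p = 0.514), neither of them called. The 95% intervals ran from -2.58 to -0.27 and from -1.53 to -0.21, without adjustment for the number of features. Only ANKAT-1.2.2 of the 3 contigs was called, lower with the particle at -2.17 ± 0.41 (log2, SE, edgeR adjusted p = 0.0366, where 0.0334% of features were lower), and its call ended in 13 of the 19 fits that left out 1 library (edgeR adjusted p up to 0.425, without F1 ZnO). Without both F1 ZnSO4 libraries the differences were 0.91 for ANKAT-1.1.2 (edgeR adjusted p = 0.307), 0.081 for NK2.1 (edgeR adjusted p = 0.997) and -0.64 for ANKAT-1.2.2, none called.

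Within sets, the order of particle and salt turned over between F1 and F3 for ANKAT-1.1.2, but not for NK2.1. In F1, ANKAT-1.1.2 was lower with ZnO than with ZnSO4, at -2.56 ± 0.14 (log2, SE, edgeR adjusted p = 8e-13), and so were NK2.1 at -1.26 ± 0.18 (edgeR adjusted p = 2.82e-05) and ANKAT-1.2.2 at -2.74 ± 0.34 (edgeR adjusted p = 3.91e-06). All 3 contigs were therefore called lower in F1, where 1.81% of features were. In F2 neither ANKAT-1.1.2 (0.36 ± 0.17, edgeR adjusted p = 0.619) nor NK2.1 (0.63 ± 0.22, edgeR adjusted p = 0.361) was called, where 0.409% of features were higher. In F3, ANKAT-1.1.2 was higher with ZnO by 1.87 ± 0.20 (edgeR adjusted p = 1.96e-06, where 0.558% of features were higher), while NK2.1 was lower with ZnO, at -1.08 ± 0.24 (edgeR adjusted p = 0.0209, where 0.161% were lower). The difference between particle and salt itself differed between sets for ANKAT-1.1.2 (edgeR adjusted p = 2.33e-12) and NK2.1 (edgeR adjusted p = 0.000205), as for 2.47% of features.

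No apical contig was called with iron. In the 8 iron libraries, ANKAT-1.1.2 held 87.8% to 121% of its set's control and NK2.1 88.8% to 118%. ANKAT-1.2.2, with few counts in F2 and F3, held 64.2% to 184%. With Fe2O3, ANKAT-1.1.2 stood at 62.0 ± 5.10 CPM and NK2.1 at 15.8 ± 1.43 CPM (SD, n = 4). With FeCl3 they stood at 64.0 ± 5.87 and 14.9 ± 1.48 CPM. These values overlapped the controls. The 95% interval of the log2 change with Fe2O3 was -0.89 to 0.95 for ANKAT-1.1.2 and -0.52 to 0.58 for NK2.1, and with FeCl3 it was -0.85 to 0.99 and -0.61 to 0.49. The width of these intervals takes in the spread of the divided ZnSO4 group, since all treatments share 1 fit. Without both F1 ZnSO4 libraries, the Fe2O3 changes were 0.00077 ± 0.16 for ANKAT-1.1.2 and 0.022 ± 0.16 for NK2.1 (SE). Those with FeCl3 were then 0.046 ± 0.16 and -0.067 ± 0.16 (SE). The shares of all features called were small (edgeR, 0% of features called with Fe2O3, 0.00318% lower and 0.0239% higher with FeCl3). For ANKAT-1.2.2 the intervals were -0.32 to 0.84 with Fe2O3 and -0.51 to 0.65 with FeCl3. Its changes without both F1 ZnSO4 libraries were 0.24 ± 0.22 and 0.066 ± 0.22 (SE). Fe2O3 and FeCl3 compared with each other gave log2 differences of -0.036 ± 0.44 for ANKAT-1.1.2, 0.18 ± 0.28 for ANKAT-1.2.2 and 0.089 ± 0.27 for NK2.1 (SE), none called by edgeR, where 0.0732% of features were. The 95% intervals of these differences were -0.96 to 0.88, -0.39 to 0.76 and -0.46 to 0.64. Without both F1 ZnSO4 libraries the differences were -0.045 ± 0.16, 0.17 ± 0.22 and 0.089 ± 0.16 (SE).

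Set against the iron treatments, the zinc treatments as a pair were lower in all 3 contigs, where 4.09% of features were. The log2 difference was -1.69 ± 0.35 for ANKAT-1.1.2 (SE, edgeR adjusted p = 0.00268), -1.11 ± 0.25 for ANKAT-1.2.2 (edgeR adjusted p = 0.00444) and -0.84 ± 0.21 for NK2.1 (edgeR adjusted p = 0.0105). Without the F1 ZnO library the ANKAT-1.2.2 difference was -0.80 (edgeR adjusted p = 0.195), and without the F3 ZnO library that of NK2.1 was -0.66 (edgeR adjusted p = 0.0562), neither called. This mean joins the ZnO libraries with the divided ZnSO4 group. Without both F1 ZnSO4 libraries it was -2.93 for ANKAT-1.1.2 (edgeR adjusted p = 5.14e-13), -1.89 for ANKAT-1.2.2 (edgeR adjusted p = 1.47e-05) and -1.34 for NK2.1 (edgeR adjusted p = 2.48e-07). As that pair was left out for its levels of these contigs, the larger differences followed from the choice and these p-values are no support.

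ANKAT-1.2.2 was set apart by its dependence on the set. In F1 the control and iron libraries stood at 3.85 to 4.75 CPM, the ZnSO4 libraries at 5.75 and 5.54 CPM, and the ZnO library at 0.839 CPM. In F2 it stood at 0.912 CPM in the control, 1.68 CPM with Fe2O3, 1.22 CPM with FeCl3, 0.404 CPM with ZnO and 0.555 CPM with ZnSO4. In F3 the 5 libraries held 7, 5, 6, 1 and 0 counts in the same order of treatments. The ZnO library was thus the lowest of F1 and of F2, and both zinc libraries were the lowest of F3, where counting error is large.

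Against F1, ANKAT-1.2.2 was lower in F2, at a log2 difference of -2.02 ± 0.23 (SE, edgeR adjusted p = 4.95e-08), and in F3, at -4.80 ± 0.33 (edgeR adjusted p = 4.82e-12). F3 was lower than F2 as well, at -2.78 ± 0.42 (edgeR adjusted p = 3.15e-06). Differences of this kind were common, since 35.2%, 34.6% and 32% of features were called lower in these 3 contrasts. ANKAT-1.1.2 was not called between any sets. Its log2 difference was -0.74 for F2 against F1 (edgeR adjusted p = 0.0898), called at -0.62 without the F3 ZnSO4 library (edgeR adjusted p = 0.0228), and -0.70 for F3 against F1 (edgeR adjusted p = 0.113). Without both F1 ZnSO4 libraries these differences were -0.064 and -0.18 (edgeR adjusted p = 0.707 and 0.263). NK2.1 was not called either, with differences of -0.20 and -0.30, and of 0.12 and 0.044 without both F1 ZnSO4 libraries. The ANKAT-1.2.2 differences were then -1.67, -4.46 and -2.79, all still called.

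Of all ANKAT-1 counts, ANKAT-1.2.2 took 5.53% to 7.41% in F1 (median 6.41% of 9 libraries), 1.69% to 5.64% in F2 (median 2.87% of 5) and 0% to 0.480% in F3 (median 0.292% of 5). The F1 and F3 ranges did not overlap, whatever the treatment, and the F2 range overlapped that of F1. In the F3 ZnSO4 library the share was 0 of 76 counts, with an exact 95% binomial upper limit of 4.74%, which covers counting error only. How the counting program divided reads between the contigs is not given in the sources used here, so the split between them is uncertain, and the sum would be affected too if shared reads were dropped or counted for both.

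**Figure D3:**
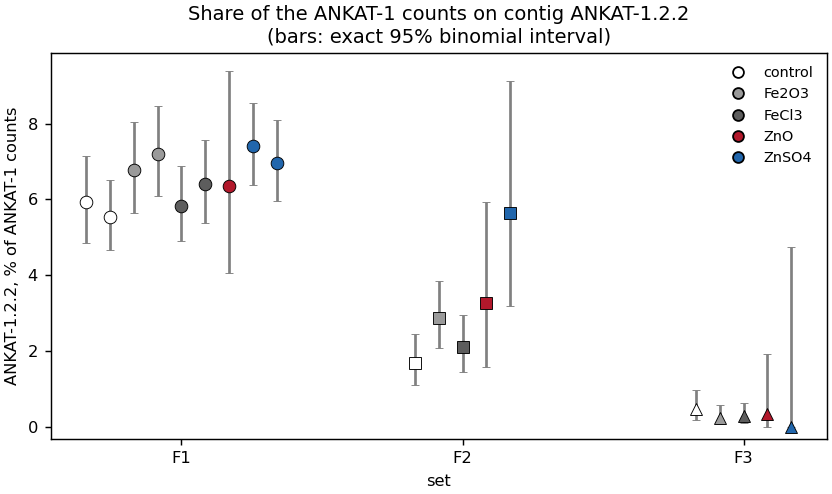
Share of ANKAT-1 counts assigned to ANKAT-1.2.2 (vertical axis, percent) in each library, by set, with treatments told apart by colour. F1 libraries lie between 5.53% and 7.41% and F3 libraries at or below 0.480%.

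Within sets, ANKAT-1.2.2 fell with ZnO in F1 by 2.32 ± 0.35 (log2, SE, edgeR adjusted p = 4.14e-05). It was not called with ZnO in F2 (-1.17, edgeR adjusted p = 0.521) or F3 (edgeR adjusted p = 0.33, 1 count). With ZnSO4 its difference from control was 0.43 in F1 (edgeR adjusted p = 0.276) and -0.71 in F2 (edgeR adjusted p = 0.639), and it had 0 counts in F3. The ZnSO4 change differed between sets (edgeR adjusted p = 0.0359). The zinc libraries with the lowest counts were those in which ANKAT-1.1.2 was low, and a call was made in F1 with ZnO alone.

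The F1 ZnSO4 libraries kept their apical transcripts while other readouts in them moved. Their metallothionein sum stood at 201% and 189% of the F1 control, beside 199.6% in the F1 ZnO library, in which ANKAT-1.1.2 was at 17.9% of control. In F2 the sum stood at 229% with ZnO and 313% with ZnSO4, and in F3 its log2 ratio to control was 0.88 with ZnO and 0.89 with ZnSO4. CHRD (chordin, an antagonist of BMP signals in the oral ectoderm) fell with ZnSO4 in each set, with log2 changes of -5.95 ± 0.11 in F1, -1.54 ± 0.12 in F2 and -2.12 ± 0.12 in F3 (SE, edgeR adjusted p = 1.11e-23, 5.42e-10 and 1.01e-12). DLX, a distal-less homeobox gene, also fell in each set (log2 changes of -2.25 for F1, -1.1 for F2 and -2.31 for F3, edgeR adjusted p = 2.97e-16, 2.89e-06 and 1.95e-12). Whether CHRD and DLX differ from the apical genes in their pattern over sets was not tested.

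Of genes of other territories, all 5 endoderm and gut contigs fell with ZnSO4 in F1 (median -1.55 on the log2 scale, where 4.95% of all features were called lower), with ENDO16.3.3, a marker of the gut, at -1.55 and the homeobox gene EVE among them. In F2 none of the 5 fell, where 1.33% of features were called lower, and 1 rose. In F3, where 1.64% were lower, none was called. Of the 5 ectoderm patterning contigs, 4 fell and 1 rose with ZnSO4 in F1, in F2 and in F3. The share of all features called higher in these contrasts is not given here, so the rises lack a background. A difference between sets was not tested for either list. A part of these other transcripts in the apical gene result was not tested.

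**Figure D4:**
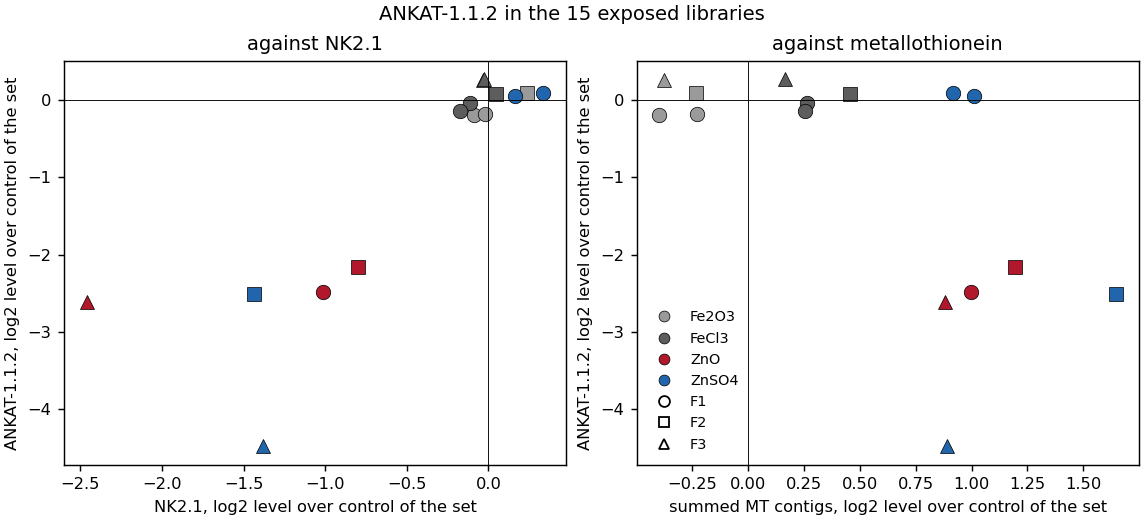
Each point is 1 exposed library, plotted as the log2 ratio to its set's control; ANKAT-1.1.2 (vertical axis) is set against NK2.1 in one panel and against the sum of 23 metallothionein contigs in the other. The F1 ZnSO4 libraries lie with the other zinc libraries on the metallothionein axis (0.92 and 1.01) but with the iron libraries on the ANKAT-1.1.2 axis.

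The 6 contigs found from a list of apical plate and neuronal genes were the 3 above and HES, ISLET and PROX1, transcription factor genes that are also used outside the apical plate. With ZnO the list had 3 lower and 0 higher, against 1.14% of all features lower, and the 3 were the members already described. With ZnSO4 it had none in either direction, against 3.07% lower and 2.35% higher, and it had none with Fe2O3 or FeCl3. HES stood at 10.9 ± 4.88 CPM in controls and 12.0 ± 5.84 CPM with ZnO (SD). ISLET stood at 7.35 ± 2.68 and 5.97 ± 1.39 CPM, and neither gene was called. PROX1 stood at 79.6 ± 4.95 CPM in controls and 104 ± 28.3 CPM with ZnO, a log2 difference of 0.35 (edgeR adjusted p = 0.323). Within sets PROX1 rose with ZnO in F1 by 0.61 (edgeR adjusted p = 7.11e-05) and in F2 by 0.47 (edgeR adjusted p = 0.0305) but was not called in F3 (-0.055). The share of all features called higher in these contrasts is not given here. NK2.1 and ANKAT-1.1.2 fell in all those sets. With ZnSO4 PROX1 fell by 0.41 in F1 (edgeR adjusted p = 0.000701), where NK2.1 and ANKAT-1.1.2 were not called. Other regulators of the apical plate, such as FoxQ2 and Six3, were on the list, but no contig was found under the names searched.

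Cilia of the apical tuft are the structure that both genes serve in the urchins named above, though most cilia of the embryo lie elsewhere. Of 42 contigs in a list of tubulins and ciliary proteins, 4 fell and 0 rose with ZnO, against 1.14% of all features lower. Tubulins are not particular to cilia, and the contigs named below are all tubulins. With ZnSO4 8 fell and 0 rose, against 3.07% lower and 2.35% higher, and none was called with iron. The beta-tubulin contig TBB1.1.2 fell in both, at -0.47 with ZnO (edgeR adjusted p = 0.0117) and -0.41 with ZnSO4 (edgeR adjusted p = 0.00857). The alpha-tubulin contigs TBA1.3.12 and TBA1.6.12 fell with ZnSO4, at -1.01 (edgeR adjusted p = 0.00121) and -0.80 (edgeR adjusted p = 0.00335). By set, ZnSO4 gave 15 lower and 4 higher in F1, none in F2, and 11 lower and 0 higher in F3, where 4.95%, 1.33% and 1.64% of all features were called lower. The share of all features called higher within sets is not given here. TBA1.6.12 stood at -1.44 in F1, and at -0.34 in F2 and -0.28 in F3 without a call. Whether changes in this list differ between sets was not tested. Tubulin contigs may share reads, and how such reads were divided is not given, so their individual values are uncertain.

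Of 5 contigs of Wnt signalling, none was called with ZnO over all sets and 1 rose with ZnSO4, against 2.35% of all features higher. That contig was WNT2, a Wnt ligand gene, at 0.74 (edgeR adjusted p = 0.00153). By set WNT2 rose with ZnSO4 by 0.42 in F1, 0.92 in F2 and 1.08 in F3 (edgeR adjusted p = 0.000543, 3.67e-06 and 2.22e-07). With ZnO it rose in F1 by 0.99 (edgeR adjusted p = 2.54e-08) and was not called in F2 (0.20) or F3 (0.28). Another contig of the list, DVL, fell with ZnO in F1, at -0.50 (edgeR adjusted p = 0.00651), where 2.82% of features were called lower. The share called higher within sets is not given here. A part of Wnt signalling in the apical gene result was not tested.

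Among 508 contigs with a gene name and a mean log2 CPM of at least 1, the one whose levels most resembled those of NK2.1 was ANKAT-1.1.2. The other ANKAT-1 contig lay below that level and was not among them. With set means removed, the Pearson correlation of ANKAT-1.1.2 with NK2.1 over the 19 libraries was 0.85, ahead of KPC1 at 0.82, the alpha-tubulin contig TBA.1.4 at 0.77, INO1A (inositol phosphate synthase) at 0.75 and FRK.2.2 at 0.73. ANKAT-1.2.2 correlated with NK2.1 at 0.82. Among all 62864 other features, whatever their level, ANKAT-1.1.2 ranked 24th and ANKAT-1.2.2 69th for NK2.1, while NK2.1 ranked 226th for ANKAT-1.1.2. The correlation of the 2 ANKAT-1 contigs was 0.91, which placed ANKAT-1.2.2 83rd for ANKAT-1.1.2. Of the named contigs above that level, those nearest ANKAT-1.1.2 were KPC1 at 0.92, the acetyl-CoA carboxylase contigs ACAC.3.3, ACAC.1.3 and ACAC.2.3 at 0.89, 0.89 and 0.88, and ARC3 at 0.89. In the 9 F1 libraries alone NK2.1 and ANKAT-1.1.2 correlated at 0.93, and over 19 libraries with treatment means removed as well at 0.72. The points share libraries, depth and treatment, so these values are a description with no test. KPC1 was itself called in ZnSO4 of F3 only (log2 change -1.29, edgeR adjusted p = 0.00484), among ZnO and ZnSO4 against control in each set and over all sets.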

How the data were processed

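Poly(A) RNA of pooled whole embryos was sequenced, per the labels' protocols. The authors deposited 1 table of whole-number counts per feature, without normalization. Per the submitters' processing notes the tools included SAMtools 1.3.1, BWA 0.7.12-r1039 and Trim Galore 0.4.0. For assembly, counting program and strand setting the answer is not given in the sources used here, so reads of near-identical contigs may be divided.

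Counts were analysed with edgeR 4.0.16 (limma 3.58.1, R 4.3.3): filterByExpr on treatment (62865 of 63389 features), TMM scaling, and 1 quasi-likelihood model with set and treatment over 19 libraries (12 residual degrees of freedom, 11.1 prior, common dispersion 0.015). Adjustment was by Benjamini-Hochberg over all features, with a threshold of 0.05. Each SE is the size of the log2 change divided by the square root of its F. Changes within sets and their differences between sets come from a set-by-treatment model. The script was tested on simulated data.

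Alternatives were the DESeq2 1.42.0 Wald test, RLE scaling, a stricter filter (CPM of 2 in 4 libraries), no filter, no set term, a replicate block in F1, F1 libraries summed, and leaving out libraries or sets. Left out together, the F1 ZnSO4 pair was an alternative chosen after seeing the data, as was testing the changes within sets. Likeness used log2 CPM with a prior count of 2. Members and gene lists were chosen with earlier results of these data known. Named genes are the members, every measured contig of the apical list, up to 3 contigs of each other list with the smallest p over the treatment contrasts, and the 5 contigs with a gene name and a mean log2 CPM of at least 1 that correlate best with NK2.1 or ANKAT-1.1.2 (contigs of the same name left out). ISLET was added to its list as a spelling once names had been seen.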

Additional observations from a re-analysis of the deposited data

Results flagged for a closer look

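Each of these 6 results was singled out because a change differed between the sets F1, F2 and F3 when the difference itself was tested (edgeR set-by-treatment model, adjusted over all features). The change of NK2.1 with ZnO differed between sets (adjusted p = 0.0023), being -1.02, -0.80 and -2.46 in F1, F2 and F3. With ZnSO4 the change of ANKAT-1.1.2 differed (adjusted p = 1.1e-14), being 0.074, -2.52 and -4.48. NK2.1 did so as well (adjusted p = 6.41e-06), with changes of 0.25, -1.44 and -1.38, and so did ANKAT-1.2.2 (adjusted p = 0.0359), with 0.43 in F1, -0.71 in F2 and 0 counts in F3. The difference between ZnO and ZnSO4 also varied with the set for ANKAT-1.1.2 (adjusted p = 2.33e-12), being -2.56, 0.36 and 1.87, and for NK2.1 (adjusted p = 0.000205), being -1.26, 0.63 and -1.08. F2 and F3 have 1 library per treatment, so a difference of a set and one of a single library cannot be told apart there. Single libraries far from their group were looked for in 12 groups of 4 and none was found. That search cannot find a pair, so it says nothing of the ZnSO4 groups, which split into F1 on one side and F2 and F3 on the other.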

How the results depend on the processing

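All 3 contigs kept the direction of their ZnO change under every alternative run, while the calls depended on the fit and the libraries. Without the set term the ZnO calls of NK2.1 (-1.29), ANKAT-1.1.2 (-2.47) and ANKAT-1.2.2 (-2.49) ended, as did those of zinc against iron (-0.81, -1.58 and -1.22) and of ZnO against ZnSO4 for ANKAT-1.2.2 (-2.80), and Fe2O3 turned sign for ANKAT-1.1.2 (-0.0081). With a replicate block in F1, which drops the F1 ZnO library because its title has no number, the ZnO changes were -1.36, -2.15 and -1.40 in that order, none called, and ANKAT-1.2.2 lost its calls of ZnO against ZnSO4 (-1.54) and zinc against iron (-0.80). No strong shift shared by replicate number was seen in F1: differences between replicates 2 and 1 correlated at -0.072 to 0.049 over 6 pairs of treatments. Counting noise of single libraries also brings such values near 0, so whether the numbers pair the libraries was not settled. With F1 libraries summed, ANKAT-1.1.2 (-2.42) and NK2.1 (-1.34) lost the ZnO call, ANKAT-1.2.2 lost that of ZnO against ZnSO4 (-2.02) and its ZnSO4 value turned sign (-0.023, and -0.024 with DESeq2). The stricter filter ended the ANKAT-1.2.2 call of ZnO against ZnSO4 (-2.16).

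Without set F1, ZnSO4 was called for ANKAT-1.1.2 (-3.26) and NK2.1 (-1.41), and ANKAT-1.2.2 lost the ZnO call (-1.64). Signs turned for ANKAT-1.2.2 with ZnSO4 (-1.38), ANKAT-1.1.2 in ZnO against ZnSO4 (0.88; ANKAT-1.2.2 lost its call at -0.25), NK2.1 with FeCl3 (0.0010) and ANKAT-1.1.2 in Fe2O3 against FeCl3 (0.0087). Without F2, signs turned for NK2.1 with Fe2O3 (-0.044) and ANKAT-1.2.2 with FeCl3 (-0.012). Without F3, NK2.1 lost its ZnO (-0.88) and zinc against iron (-0.50) calls, and ANKAT-1.1.2 turned sign with Fe2O3 (-0.076) and FeCl3 (-0.026). Without both F1 ZnSO4 libraries, ZnSO4 was called for ANKAT-1.1.2 (-3.36) and NK2.1 (-1.41), and ANKAT-1.2.2 turned sign (-1.41). The pair was left out for its levels of these contigs, so those calls are no support. ZnO against ZnSO4 then became 0.91 for ANKAT-1.1.2, 0.081 for NK2.1 and -0.64 for ANKAT-1.2.2. Set differences turned sign for NK2.1 (0.12 for F2 and 0.044 for F3, against F1) and ANKAT-1.1.2 (-0.11, F3 against F2).

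Leaving out each library in turn, ZnO gave -2.57 to -2.15 for ANKAT-1.1.2, -2.33 to -1.40 for ANKAT-1.2.2 (call lost without F1 ZnO) and -1.61 to -0.94 for NK2.1. ZnO against ZnSO4 gave -1.97 to -1.04 for ANKAT-1.1.2, called without F3 ZnSO4, and -2.47 to -1.54 for ANKAT-1.2.2, whose call ended in 13 of 19 cases. Zinc against iron gave -1.26 to -0.80 for ANKAT-1.2.2 and -1.01 to -0.66 for NK2.1, and their calls ended without F1 ZnO and F3 ZnO, respectively. Ranges of uncalled values that crossed 0 were, for ANKAT-1.1.2, -0.22 to 0.17 (Fe2O3), -0.16 to 0.20 (FeCl3), -0.29 to 0.21 (Fe2O3 against FeCl3) and -0.18 to 0.39 (F3 against F2), with -0.84 to -0.40 for F2 against F1. For NK2.1 they were -0.098 to 0.18 (Fe2O3), -0.24 to 0.096 (FeCl3), -0.038 to 0.26 (Fe2O3 against FeCl3), -0.35 to 0.053 (F2 against F1) and -0.32 to 0.094 (F3 against F2). For ANKAT-1.2.2 they were -0.011 to 0.14 (FeCl3) and -0.073 to 0.37 (ZnSO4).

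Called features numbered 1313 with ZnO (30 without the set term, 574 with the replicate block, 837 with F1 summed, 2191 without the F1 ZnSO4 pair, 651 to 1587 leaving out a library) and 3406 with ZnSO4 (116, then 1706 with F1 summed and 1982 without F1). ZnO against ZnSO4 had 49 (0 without the set term, 193 with DESeq2, 277 with the block, 1 with F1 summed, 300 without F1, 83 without F3, 4 to 426 leaving out a library). FeCl3 had 17 (0, 9 and 29 without the set term, with F1 summed and without the F1 ZnSO4 pair), Fe2O3 against FeCl3 46 (0, 27, 29 and 25 without the set term, with F1 summed, without F1 and without F3), and zinc against iron 4689 (334 without the set term, 2693 without F1). The changes within sets were not refitted under these alternatives. Depth limits ANKAT-1.2.2 in F3, at 0 to 7 counts per library. The cause of the changed calls was not tested.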
